A study of Rattus norvegicus with 8 samples.

Results

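The triggering receptors expressed on myeloid cells (TREM) and their adaptor were measured in the rat *substantia nigra* (SN) on 8 arrays. The family was taken as 7 genes, *Trem1*, *Trem2*, *Trem3*, *Treml1*, *Treml2*, *Treml4* and *Tyrobp*, and a probe belonged to it where its RefSeq accession carried one of these symbols in a table of the rat assembly GRCr8. This named 5 probes of the 45598 on the array, 1 each for *Trem1*, *Trem2*, *Trem3*, *Treml1* and *Tyrobp*, and none for *Treml2* or *Treml4*. The family was selected on the measured difference of *Trem3* between the groups, so that difference is given as a description with no test. All 8 arrays came from adult female Sprague Dawley rats, aged 3 months at surgery, 20 weeks after an injection into the SN of 1 side. The AAV-αSyn group (4 arrays) received an AAV6 vector for wild-type human α-synuclein at 5.2e10 vector genomes per µL, and the AAV-Null group (4 arrays) received the AAV6-Null control vector at 5.3e9 per µL. The vectors thus differed in titre as well as in the transgene, and these cannot be told apart. RNA came from the ipsilateral SN.

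TREM receptors are cell surface proteins of the immunoglobulin superfamily, found mainly on myeloid cells. Most of them have a short cytoplasmic tail and signal through a partner, DAP12, which *Tyrobp* encodes and which carries an activation motif that recruits the kinase SYK. In brain, TREM2 and DAP12 are known from microglia, where they take part in lipid sensing and phagocytosis, and loss of either gene in people causes Nasu-Hakola disease. TREM1 is known from neutrophils and monocytes, and TLT-1, the product of *Treml1*, from platelets.

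The 6 receptor genes lie on chromosome 9 of GRCr8 and *Tyrobp* lies on chromosome 1. Promoter sequences from RefSeq were matched by symbol for 5 of the 7 genes, all but *Treml4* and *Tyrobp*. The 250 bases before the start of *Trem2* (chr9:20151780-20152029, minus strand) and of *Trem3* (chr9:20257615-20257864, minus strand) are shown because *Trem2* was detected on every array and *Trem3* was the member that chose the family. Capitals mark GAGGAA, the core of binding sites of the myeloid factor PU.1, read on either strand (TTCCTC).

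Trem2: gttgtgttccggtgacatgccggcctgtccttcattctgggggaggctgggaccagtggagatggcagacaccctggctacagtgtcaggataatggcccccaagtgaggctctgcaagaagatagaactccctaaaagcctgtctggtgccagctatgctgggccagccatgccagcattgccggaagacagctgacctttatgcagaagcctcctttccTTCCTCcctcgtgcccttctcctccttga

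Trem3: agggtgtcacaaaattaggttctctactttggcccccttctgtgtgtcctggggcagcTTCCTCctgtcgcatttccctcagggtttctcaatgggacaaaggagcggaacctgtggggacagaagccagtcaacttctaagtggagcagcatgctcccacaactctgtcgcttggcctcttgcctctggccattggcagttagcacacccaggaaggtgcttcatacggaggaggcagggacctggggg

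Each of these windows held the motif 1 time, beginning 29 bases before the start in *Trem2* and 192 bases before it in *Trem3*. The motif was in 23.3% of the 33469 rat promoter windows of this length, so its presence is a description of the sequence and not of a site in use. The letters TATAAA, searched on both strands, were in neither window, against 12.9% of all windows.

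Intensities are given on the log2 scale after quantile normalization, and detection was judged per array, a probe passing where the scanner software called a share of 0.5 or more of its spots well above background. Of the 5 members with a probe, *Trem2*, *Tyrobp* and *Treml1* were above background on all 8 arrays, *Trem3* on 2 arrays and *Trem1* on none. Each of *Trem2* and *Tyrobp* was printed as 10 spots per array, and each of the other members as 1 spot. No level is set against that of another gene, since probes differ in their response.

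**Figure D1:**
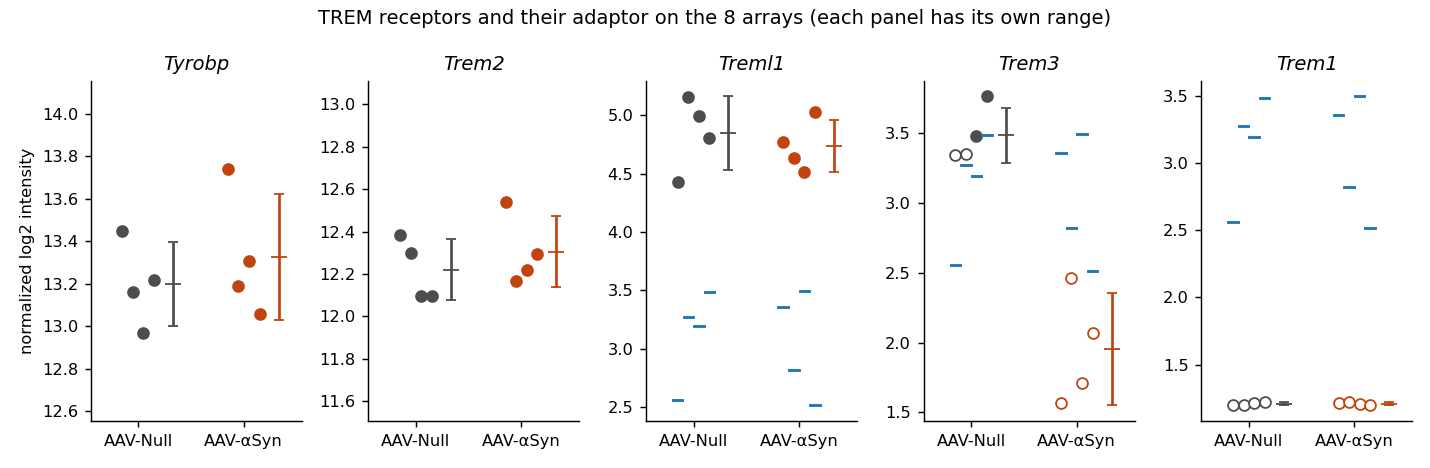
Normalized log2 intensity of the 5 members with a probe on each of the 8 arrays (points, AAV-Null in grey and AAV-αSyn in orange), with the mean ± SD of each group beside them. Filled points are well above background and open points are not, and blue ticks in the 3 panels on the right give the lowest signal of any probe above background on that array. The groups overlap in *Tyrobp*, *Trem2* and *Treml1*, and *Trem3* is above background on AAV-Null arrays 3 and 4 alone.

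*Tyrobp*, the adaptor (probe A_42_P807697, NM_212525), was strongly detected and did not separate the groups. Its log2 intensity was 13.45, 13.16, 12.97 and 13.22 on AAV-Null arrays 1 to 4. It was 13.74, 13.19, 13.31 and 13.06 on AAV-αSyn arrays 1 to 4. The highest array of all was AAV-αSyn 1 and the lowest was AAV-Null 3, and the other arrays of both groups overlapped. AAV-Null averaged 13.20 ± 0.20 (SD, n = 4) against 13.32 ± 0.30 (SD, n = 4) in AAV-αSyn, for a log2 fold change of 0.13 (SE 0.16, 95% CI −0.25 to 0.50, 1.09-fold), where positive means higher in AAV-αSyn. This difference did not pass limma's moderated test (adjusted p = 0.973, unadjusted p = 0.464) or the exact permutation test (p = 0.571, two-sided, smallest possible 0.0286). The interval runs from 0.840-fold to 1.42-fold. Spots of the probe within an array differed by an SD of 0.022 to 0.053, less than the arrays of a group differed from each other. Without AAV-αSyn 1 the log2 fold change was −0.01, so the sign of this uncalled difference rests on that array.

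*Trem2*, the microglial receptor (probe A_42_P512838, NM_001106884), likewise showed no difference that passed the test. Its log2 intensity was 12.38, 12.30, 12.10 and 12.10 on AAV-Null arrays 1 to 4, and 12.54, 12.17, 12.22 and 12.29 on AAV-αSyn arrays 1 to 4. AAV-αSyn 1 was again the highest array, and the other AAV-αSyn arrays lay within the range of the AAV-Null arrays. The means were 12.22 ± 0.14 (SD, n = 4) and 12.30 ± 0.17 (SD, n = 4), with a log2 fold change of 0.08 (SE 0.11, 95% CI −0.17 to 0.34, 1.06-fold). It did not pass limma's test (adjusted p = 0.973, unadjusted p = 0.466) or the exact permutation test (p = 0.514). In linear terms the interval ran from 0.889-fold to 1.27-fold, narrower than that of *Tyrobp*. With the arrays weighted by quality the log2 fold change was −0.02, and with 1 array left out it was 0.0060 without AAV-αSyn 1, 0.044 without AAV-Null 3 or AAV-Null 4, 0.13 without AAV-αSyn 2 and 0.14 without AAV-Null 1.

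*Treml1*, the platelet receptor (probe A_44_P837382, NM_001192001), was dim but above background on every array. Its log2 intensity was 4.43, 5.16, 4.99 and 4.81 on AAV-Null arrays 1 to 4, and 4.77, 4.63, 4.52 and 5.03 on AAV-αSyn arrays 1 to 4. Every AAV-αSyn array lay inside the AAV-Null range. The means were 4.85 ± 0.31 (SD, n = 4) and 4.74 ± 0.22 (SD, n = 4), with a log2 fold change of −0.11 (SE 0.18, 95% CI −0.51 to 0.29, 0.927-fold), which did not pass limma's test (adjusted p = 0.977) or the exact permutation test (p = 0.6). The wider interval allows a fold between 0.701 and 1.23. The log2 fold change was −0.0046 without AAV-Null 2 and −0.25 without AAV-Null 1. Of the platelet markers with a probe, *Ppbp*, *Itgb3*, *Gp1ba* and *Selp* were above background on no array and *Pf4* and *Gp9* on all 8. The mean log2 level of the latter 2 was 6.74 to 8.08 on the AAV-Null arrays and 6.56 to 7.11 on the AAV-αSyn arrays.

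Of these 3 members, 0 passed an adjusted p of 0.05 and 0 had an unadjusted p under 0.05 by limma. Over all 33853 probes tested, 0.0148% passed the adjusted threshold and 5.64% the unadjusted one, so 0 of 3 lies close to the background of the whole array.

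*Trem3*, a rodent receptor that pairs with DAP12 (probe A_64_P160484, NM_001191581), had the only non-overlapping groups in the family, at the edge of detection. Its log2 intensity was 3.34, 3.35, 3.48 and 3.76 on AAV-Null arrays 1 to 4, and 1.57, 2.46, 1.71 and 2.07 on AAV-αSyn arrays 1 to 4. All AAV-αSyn arrays were lower than all AAV-Null arrays, by 0.88 at the narrowest gap. In the scanner's arbitrary units the single spot gave 9.77, 10.3, 11.4 and 13.1 on the AAV-Null arrays and 3.12, 4.42, 3.5 and 5.48 on the AAV-αSyn arrays. The spot was well above background on AAV-Null arrays 3 and 4, and on none (0 of 4) in AAV-αSyn. The measured means were 3.48 ± 0.20 (SD, n = 4) and 1.95 ± 0.40 (SD, n = 4), a difference of −1.53. On AAV-Null arrays 1 and 2 the spot missed this call although its signal exceeded the lowest one that passed there (2.56 and 3.28), so no bound on the fold is set from that level. The probe was tested as part of the whole table through its 2 AAV-Null arrays above background, and no p is given because this contrast chose it. Groups of arrays that did not overlap, with AAV-αSyn lower, were found at 1.26% of all probes tested.

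The size of the *Trem3* difference depended on how the low signal was treated. With normexp background correction and an offset of 50 it was −0.18. A less strict call of the same software, a signal positive and significant against background, was given on all 8 arrays. The probe was not tested where a probe had to be above background on at least 4 arrays.

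*Trem1*, the receptor of neutrophils and monocytes (probe A_44_P354415, NM_001106885), was not well above background on any array. Its intensity was 2.06 to 2.68 over the 8 arrays, it entered no test, and no fold is given. Of 11 neutrophil and monocyte markers with a probe, 6 were above background on no array, among them *Cxcr2*, *Mmp8*, *Mmp9*, *Elane* and *Ccr2*. *S100a8* was above background on 1 AAV-Null and 3 AAV-αSyn arrays. *S100a9*, *Csf3r*, *Fpr1* and *Camp* were above background on all 8, with log2 fold changes of −0.17, 0.16, 0.19 and 0.23. The mean over the 5 markers tested was 5.04 to 5.81 on the AAV-Null arrays and 5.37 to 5.73 on the AAV-αSyn arrays, overlapping ranges.

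Genes of DAP12 signalling, including the partner receptor *Clec5a* and the related adaptor *Hcst* (DAP10), were spread on both sides of 0. Of 18 genes, 17 had a probe, all above background on all 8 arrays. None passed the adjusted threshold, and 2 were lower at an unadjusted p under 0.05, beside 2.32% of all probes tested that were lower at this threshold. The median log2 fold change was 0.00, beside 0.01 over all probes tested, with 9 genes above 0 and 8 below, and it ran from −0.05 to 0.06 over the alternatives. *Plcg2*, the phospholipase downstream of SYK, had a log2 fold change of −0.34 (SE 0.12, adjusted p = 0.818 by limma), with 7.0 to 7.39 on the AAV-Null arrays and 6.58 to 7.05 on the AAV-αSyn arrays. *Vav3*, a guanine nucleotide exchange factor, had −0.25 (SE 0.10, adjusted p = 0.844 by limma), with 10.32 to 10.67 and 10.21 to 10.43. In both genes the ranges overlapped. The kinase *Zap70* and the phosphoinositide kinase subunit *Pik3cd* had log2 fold changes of 0.21 and 0.17.

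Ligands of TREM2 or TREM1 and the proteases that cut TREM2 gave 7 genes with a probe of 8, all above background on all 8 arrays. None had an unadjusted p under 0.05, and the median log2 fold change was −0.06, which turned to 0.03 with the mean over the probes of a gene and to 0.0059 without AAV-Null 3. The lipoproteins *Apoe* and *Clu*, which bind TREM2, had −0.09 and −0.10. *Hmgb1*, a proposed ligand of TREM1, had −0.14. The TREM2 sheddase *Adam17* had 0.19 (SE 0.11, adjusted p = 0.951 by limma).

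**Figure D2:**
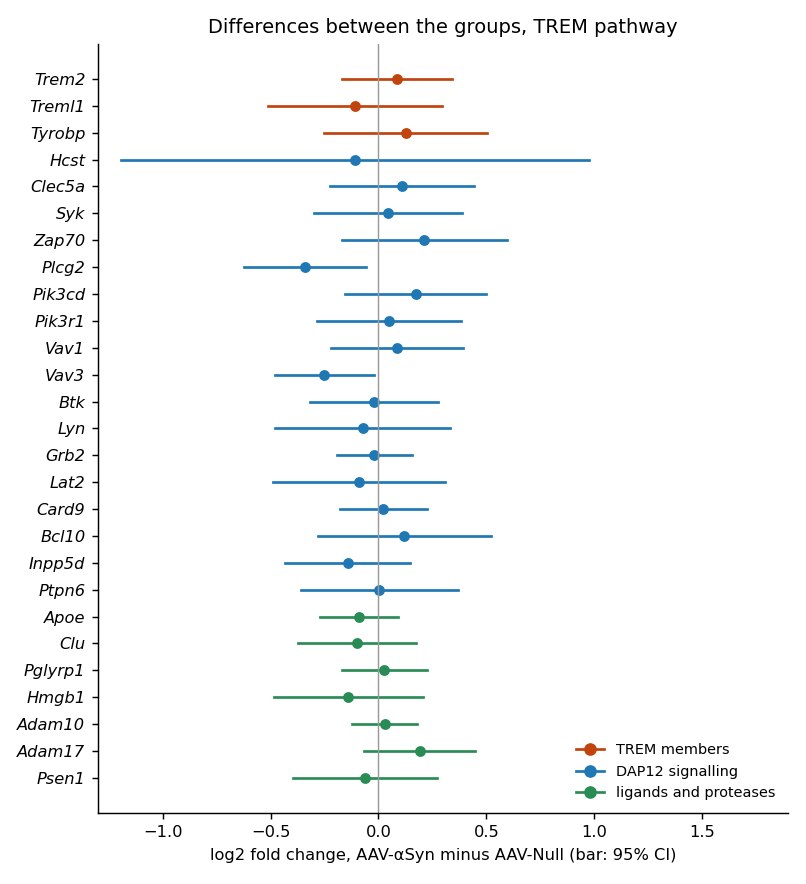
Log2 fold change (AAV-αSyn minus AAV-Null, x axis) with its 95% confidence interval from limma for *Trem2*, *Treml1* and *Tyrobp* (orange), 17 genes of DAP12 signalling (blue) and 7 ligands and proteases (green). The intervals of *Plcg2* and *Vav3* lie below 0 before adjustment, and all others cross 0.

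Markers of cell types were compared between the groups, first those of microglia and macrophages. All 16 microglial and macrophage markers were above background on all 8 arrays, 0 had an unadjusted p under 0.05, and the median log2 fold change was 0.04. Differences among them included 0.31 for *Cd68*, −0.27 for *C1qc* and −0.24 for *Irf8*. Their mean level was 10.97 to 11.30 on the AAV-Null arrays and 10.90 to 11.34 on the AAV-αSyn arrays. Since this is bulk RNA, fewer cells of a type and less RNA per cell cannot be told apart.

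Markers of dopamine neurons and of raphe and hindbrain neurons, the latter serotonergic, noradrenergic and glycinergic, are given because their means lay apart between the groups. All 7 dopamine neuron markers with a probe were lower in AAV-αSyn (median log2 fold change −0.38, 4 at an unadjusted p under 0.05, beside 2.32% of all probes tested, 0 past the adjustment by limma), with array means of 12.47 to 12.93 in AAV-Null and 12.06 to 12.38 in AAV-αSyn. All 5 raphe and hindbrain neuron markers were higher (median 2.30), with array means of 5.08 to 6.95 against 7.02 to 8.76. By limma 4 had an unadjusted p under 0.05, beside 3.31% of all probes tested that were higher at this threshold. *Dbh*, among these 4, was above background on 0 AAV-Null and 3 AAV-αSyn arrays. It entered the test only through the group where it was high, so its p is not counted as support. *Fev* was above background on 1 AAV-Null and 3 AAV-αSyn arrays. The median of the 5 markers was 1.14 with normexp and an offset of 50. The glycine transporter gene *Slc6a5*, at a log2 fold change of 1.28, passed the adjustment among them (adjusted p = 0.0424 by limma), a call that other settings lost (adjusted p 0.00626 to 0.396 over the alternatives, the highest with the replicate number as a block). Median log2 fold changes were 0.04 for 6 astrocyte, 0.10 for 6 oligodendrocyte and 0.04 for 6 endothelial markers. The part of these shifts in the *Trem3* difference was not tested.

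*Trem2* and *Tyrobp* tended to be high on the same arrays. The highest value of each gene in each group was on the array numbered 1. Over the 8 arrays Pearson's r was 0.80 (exact permutation p = 0.0176, 0.105 after adjustment over 6 relations) and Spearman's rho was 0.52 (exact permutation p = 0.197, adjusted 0.295). The relation did not pass the adjustment. The permutations treat the 8 arrays as exchangeable, and r within the rows of the slide was not computed. Without AAV-Null 4 and AAV-αSyn 1, the arrays farthest from the median of *Trem2*, r was 0.64. Around the group means r was 0.78, and on the sides of the slide, with 4 arrays each, it was 0.84 and 0.76.

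Pearson's r was smaller in size for the other relations. With the mean of the 16 microglial markers, r was 0.51 for *Tyrobp* and 0.34 for *Trem2* (exact permutation p = 0.199 and 0.415, adjusted 0.331 and 0.499), with rho of 0.52 and 0.45 (exact permutation p = 0.197 and 0.267, adjusted 0.295 and 0.321). Leaving out the pair of arrays farthest from the median turned these r to −0.05 and −0.29, so they rest on those arrays. On the sides of the slide r with the microglial mean was 0.89 and 0.39 for *Tyrobp*, and 0.92 and −0.24 for *Trem2*. *Treml1* ran against *Tyrobp*, with r of −0.51 and rho of −0.71 (exact permutation p = 0.196 and 0.0576, adjusted 0.331 and 0.295), and r was −0.69 without AAV-Null 1 and AAV-αSyn 1. On the sides of the slide this r was −0.33 and −0.95. With *Trem2* and with the microglial mean, *Treml1* had r of −0.13 and −0.49 (exact permutation p = 0.757 and 0.221, adjusted 0.757 and 0.331), and on the sides of the slide these were 0.10 and −0.51, and −0.28 and −0.63.

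**Figure D3:**
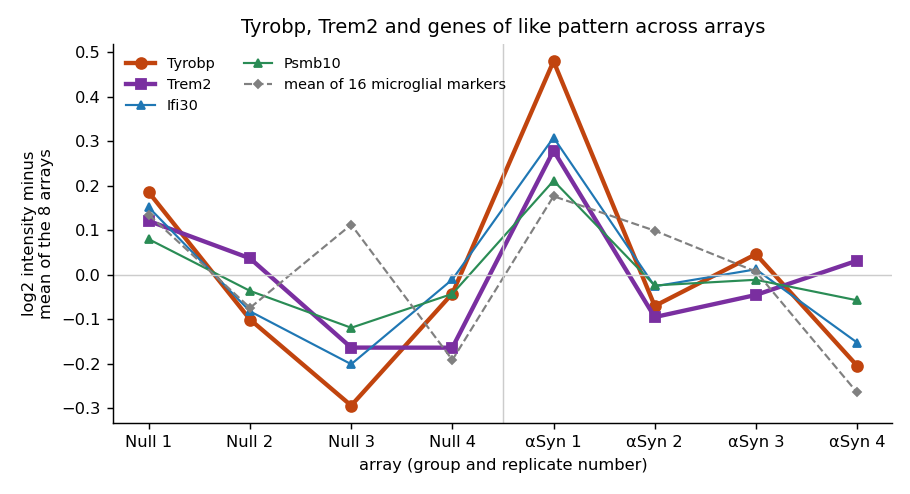
Log2 intensity minus the mean of the 8 arrays (y axis) on each array (x axis) for *Tyrobp*, *Trem2*, *Ifi30*, *Psmb10* and the mean of 16 microglial markers. AAV-αSyn 1 is the highest array in each of the 5 lines. *Ifi30* and *Psmb10* rise and fall with *Tyrobp* from array to array, both over a narrower range.

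Among 12598 named genes above background on all 8 arrays, those most like *Tyrobp* in pattern over the 8 arrays were *Ifi30*, a lysosomal thiol reductase (r = 0.99), *Psmb10*, an immunoproteasome subunit (0.98), *Cd244l1* (0.97), the MHC class I gene *RT1-CE5* (0.97) and *Gngt2* (0.97). *Ifi30* ranked the 8 arrays in the same order as *Tyrobp* (rho = 1), with 11.70, 11.47, 11.35 and 11.54 on AAV-Null arrays 1 to 4 and 11.86, 11.52, 11.56 and 11.40 on AAV-αSyn arrays 1 to 4. These correlations share arrays, RNA and normalization, were picked as the highest of many, and have no p. *Trem2* was in place 294 of this ranking.

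The genes most like *Trem2* were *Bcl3* (r = 0.96), *Arhgap28* (0.94), *Rras* (0.94), the ceruloplasmin gene *Cp* (0.94) and *Ifitm1* (0.94), and *Tyrobp* was in place 182. For *Treml1* they included *Bmp6* (0.91), *Tab1* (0.90), *Slc6a12* (0.88) and *Polr1e* (0.86). None of the genes named here as most like a member passed the adjustment between the groups by limma, and none had an unadjusted p under 0.05.

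The microglial markers were spread widely against *Tyrobp*. The median r was 0.53, from −0.75 for *Cx3cr1* to 0.96 for *Aif1*, which was in place 6 of the 12598 genes. The complement subunit gene *C1qb* had r = 0.94 where *C1qa* and *C1qc*, which encode its partner chains, had 0.29 and 0.26. *Cd68* had 0.94, and *Csf1r* and *Tmem119* had −0.21 and −0.26. These markers were picked for the text after their values were seen. Against *Trem2* the median was 0.33 (−0.45 to 0.77), and against *Treml1* it was −0.51 (−0.69 to 0.49).

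**Figure D4:**
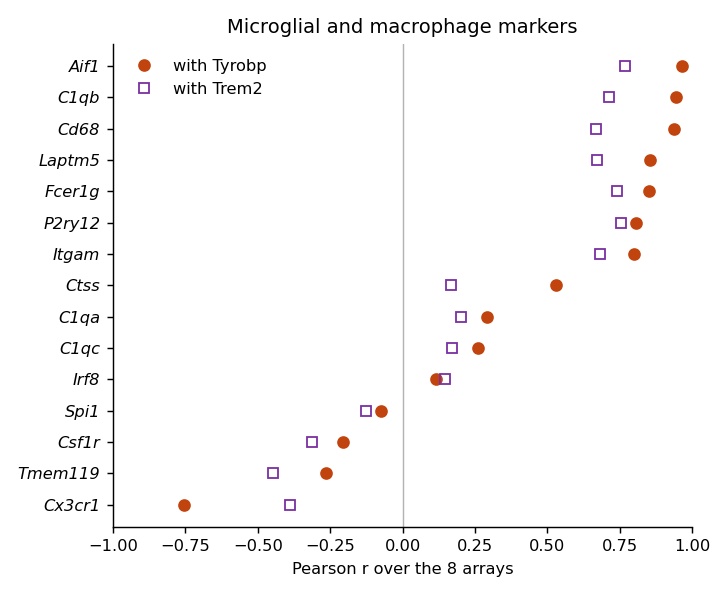
Pearson r over the 8 arrays (x axis) of 15 of the 16 microglial and macrophage markers with *Tyrobp* (filled circles) and with *Trem2* (open squares), as a description with no test. *Aif1*, *C1qb* and *Cd68* are nearest to *Tyrobp*, and *Cx3cr1* runs opposite to it.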

How the data were processed

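RNA from the ipsilateral SN was measured on 8 Agilent SurePrint G3 Rat arrays in 1 colour (Cy3), all on 1 slide, 4 per group. The authors deposited, for each spot, the intensity after the background correction of Feature Extraction (11.5.1.1 per the submitters' processing notes, 12.0.3.2 per the file headers), and a matrix of quantile normalized log2 values, which the authors made for every feature and which was used here as an alternative. The methods name fewer replicates per group than the 4 arrays used here, and p-values measure only the spread between these arrays.

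The intensity was taken to log2 in R 4.3.3 with limma 3.58.1 and statmod 1.5.0. Control spots and 268 to 418 outlier spots per array were left out, and no spot was saturated. Well above background were 74.8% to 77.5% of the spots of each array, whose median intensity was 261 to 338. Probes above background on at least 1 array (33853 of 45598) were kept, quantile normalized, averaged over spots and compared by lmFit and eBayes without a trend, with Benjamini-Hochberg adjustment over all of them. *Trem1* values come from the same steps without that filter.

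A RefSeq table (GRCr8) named 21229 probes. Genes with several probes were represented by the brightest. Named genes were all members, up to 4 genes per list chosen for the size of their log2 fold change out of those detected on all arrays, undetected defining markers, and the 5 genes most like each detected member. A few genes chosen in this way are left out of the text. Members and lists were chosen with earlier results of these data known. Alternatives were other normalizations, background corrections, filters, variance models, blocks and left-out arrays, and outlier spots kept, the last chosen after seeing the data. The sequences of the array probes were not used here, so their place in the transcripts is not given.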

Additional observations from a re-analysis of the deposited data

Results flagged for a closer look

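Each member with a probe and each list was screened within each group for an array set apart. Only the mean deviation of the platelet markers in AAV-Null was flagged. It rests on 2 genes, *Pf4* and *Gp9*, since the other platelet markers with a probe were above background on no array. On AAV-Null 2 it stood apart from the rest of its group, at 1.08 on the log2 scale against −0.26 to −0.09 on the other AAV-Null arrays. The gap to the nearest array was 0.874 of the whole range of the group, above the limit used for groups of 4. AAV-Null 2 also held the highest *Treml1* value of all arrays, 5.16. Whether these are related was not tested. Of 32 groups of values examined, 1 had an array set apart in this way, where chance gives about 1 in 20, or 1.6 groups.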

How the results depend on the processing

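Besides the reported processing, 15 alternatives and the leaving out of each of the 8 arrays were run. None of *Trem2*, *Tyrobp* and *Treml1* passed the adjusted threshold by limma under any of them. *Treml1* kept a negative log2 fold change, from −0.25 to −0.00455 (adjusted p 0.597 to 1), both ends from leaving out 1 array. *Trem2* ran from −0.020 to 0.14 (adjusted p 0.890 to 1) and turned to −0.020 with array weights. *Tyrobp* ran from −0.013 to 0.22 (adjusted p 0.839 to 1), both ends from leaving out 1 array, with −0.013 without AAV-αSyn replicate 1. The cause of these turns of sign was not tested. For *Trem3*, whose direction was fixed by the choice of the family, the measured difference ran from −1.69 to −0.18 over the 21 alternatives that kept its probe, against a group not well above background. The call as positive and significant raised its detected arrays from 2 to 4 of 4 in AAV-Null and from 0 to 4 of 4 in AAV-αSyn.

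The deviations of same-numbered arrays correlated at 0.14, 0.27, 0.04 and −0.00217 over all probes, and the numbers are also the rows of the slide. The reported comparison did not pair the arrays by number. Correlations of differently numbered arrays were not computed, so these values cannot settle whether the row matters. With the replicate block the log2 fold changes of *Trem2*, *Tyrobp* and *Treml1* were 0.08, 0.13 and −0.11 (adjusted p = 0.908, 0.900 and 0.948 by limma). Their SEs were then 0.088, 0.113 and 0.189, against 0.111, 0.164 and 0.176 without the block. Over all probes the count past the adjustment was 5 as reported, 0 with the replicate block, 3 with the side of the slide as a block, 9 with a trend and robust variance, 10 with array weights, and 3 to 5 with 1 array left out.

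Precision rests on 4 arrays per group. *Trem1* was not well above background on any array, nor was *Trem3* on 6 of 8. *Treml2* and *Treml4* were not analysed here.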
